A study of Mus musculus with 21 samples.

Results

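Hnf4a bound 387 regions of the mouse genome in all 3 lines of induced hepatocyte-like (iHep) cells that were made from fibroblasts with Hnf4a and a different Foxa protein each. A region here is what results when the iHep Hnf4a peaks of the 3 lines are pooled and peaks that overlap by at least 1 bp are merged, and a common region is a merged region that holds a peak of every line. The pooled lists gave 4813 regions, so the common regions were 8.04% of them. A further 858 regions held peaks of 2 lines and 3568 held peaks of 1 line. The common regions were chosen by the presence of iHep Hnf4a peaks, so their iHep Hnf4a scores, ranks, widths, spacing and positions are given as a description, without a test. The Hnf4a peaks of the early stage and all Foxa peaks played no part in the choice.

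Hnf4a is a nuclear receptor that binds DNA as a homodimer and is needed for hepatocyte differentiation and for the expression of many liver genes. Foxa1, Foxa2 and Foxa3 are forkhead proteins of endoderm and liver, known as pioneer factors because they can bind sites in closed chromatin. Together, Hnf4a and any of the 3 Foxa proteins convert mouse fibroblasts into cells with hepatocyte-like features, the iHep cells. Chromatin immunoprecipitation with sequencing (ChIP-seq) recovers DNA bound by a protein with an antibody, and a peak is an interval where the recovered fragments pile up.

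All cells came from C57BL/6 mice and started as embryonic fibroblasts taken at 13.5 days post coitum. Every group carried retroviral Hnf4alpha, together with Foxa1 (here the Foxa1 line), Foxa2 (the Foxa2 line) or Foxa3 (the Foxa3 line), so no group is without added Hnf4a. Cells were taken 48 hours after infection or as iHep cells, and chromatin was precipitated with an antibody to Hnf4alpha or to the Foxa protein that the line had received. Added and endogenous Hnf4a or Foxa protein cannot be told apart in these lists. Each stage, line and antibody has 1 library, which gives 6 Hnf4a and 6 Foxa peak lists. There was therefore no replicate spread, and no test across samples was possible. The labels do not say how many embryos, infections or clones stand behind a line.

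For the Foxa1, Foxa2 and Foxa3 lines, in this order, there were 1580, 2485 and 2506 iHep Hnf4a peaks and 418, 453 and 370 Hnf4a peaks at 48 hours. Where 3 values follow each other below, they keep this order. The Foxa lists held 6781, 6827 and 5690 peaks at 48 hours and 3435, 10330 and 12661 peaks in iHep cells. The sample titles carry the codes R225, R242 and R170 for iHep Hnf4a in the Foxa1, Foxa2 and Foxa3 lines, with a meaning the labels do not give, and those of the iHep Foxa3 line carry the number 3 where the other lines carry 1. A difference between lines therefore cannot be told apart from a difference between these libraries. The files hold no read counts, so the depth behind each list is unknown. The list of a further sample, Foxa3 del2 fused to a Ty1 tag, held 1 peak, which overlapped 0 common regions.

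The common regions took up unequal parts of the 3 iHep Hnf4a lists. They held 393 peaks of the Foxa1 line (24.9% of its list), 388 of the Foxa2 line (15.6%) and 474 of the Foxa3 line (18.9%). Exactly 1 peak of each line lay in 302 of the 387 regions. More than 1 peak of the Foxa1 line lay in 5 regions, more than 1 of the Foxa2 line in 1 region, and more than 1 of the Foxa3 line in 83 regions.

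The deposited score was used to rank peaks within a list, because the sources used here do not say how it was made. Rank 1 is the highest score, tied peaks share the better rank, and a region takes the rank of its best peak in each list. Expressed as a percentage of the list length, so that low values are high scores, the median ranks of the common regions were 26.8%, 21.9% and 31.6%. The quartiles ran from 9.49% to 54.2%, from 7.79% to 46.4% and from 10.5% to 57.3%. The common regions thus leaned to the upper part of each list but reached down to its end, with ranks from 1 to 1578, from 1 to 2474 and from 1 to 2490. Their best peaks had median scores of 14.3, 19.3 and 11.8, beside 10.6, 12.1 and 9.92 for the peaks outside common regions.

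Among the 10 highest-scoring peaks of a list, 9, 6 and 7 lay in common regions. Within the highest 25% of each list, the shares in common regions were 46.6% (186 of 399 peaks), 33.8% (211 of 624) and 28.5% (183 of 641). Within the lowest 25% they were 12.2% (48 of 394), 4.68% (29 of 619) and 14.1% (88 of 626). Of the 387 common regions, 70 were in the highest 25% of all 3 lists, 112 of 2 lists, 132 of 1 list and 73 of 0 lists. No common region was in the lowest 25% of all 3 lists, and 17 were in the lowest 25% of 2. In 75 regions a peak from the highest 25% of one list met a peak from the lowest 25% of another.

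The lists ordered the common regions differently. Across the 387 regions, Spearman's rho of the ranks was 0.44 for the Foxa1 and Foxa2 lines (Pearson's r = 0.35), 0.20 for the Foxa2 and Foxa3 lines (r = 0.15) and 0.14 for the Foxa1 and Foxa3 lines (r = 0.098). Over the 302 regions with 1 peak of each line the rho values were 0.37, 0.15 and 0.051. These are descriptions across regions, which are not replicates, and the points of a pair share 1 library on each axis. The highest 25% of both lists held 132 regions for the Foxa1 and Foxa2 lines, 101 for the Foxa2 and Foxa3 lines and 89 for the Foxa1 and Foxa3 lines.

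**Figure D1:**
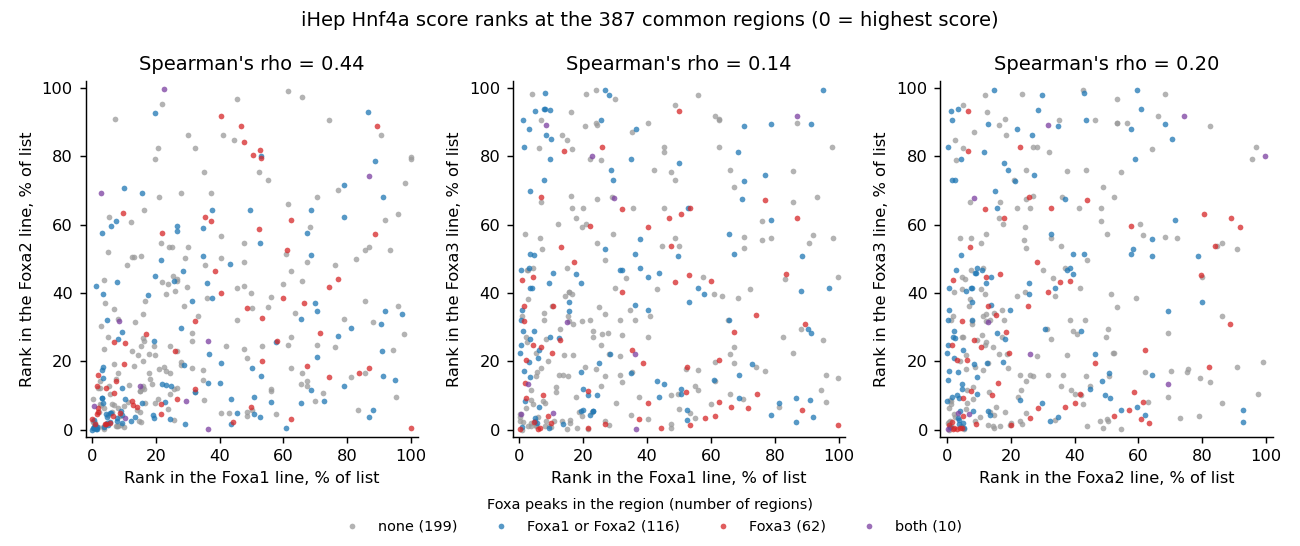
Each point is 1 of the 387 common regions, placed by its score rank in 2 iHep Hnf4a lists as a percentage of list length (both axes linear, 0 is the highest score), with the colour giving the Foxa peaks in the region. Points crowd towards the lower left in the panel of the Foxa1 and Foxa2 lines (rho = 0.44) and spread over the whole panel in the panels with the Foxa3 line (rho = 0.14 and 0.20).

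The region with the best summed rank was chr4:141115501-141116691 (mm9, 1191 bp). Its ranks were 14, 13 and 1 and its scores 33.5, 68.9 and 38.3. It had an Hnf4a peak at 48 hours in the Foxa1 line (rank 25 of 418) and no Foxa peak at either stage. The next was chr14:60378697-60379529, at ranks 13, 28 and 23, with 48-hour peaks of Foxa1 (rank 3615) and Foxa2 (rank 5578) and none in iHep cells.

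The third was chr6:85087100-85087841, at ranks 2, 78 and 6, which carried Hnf4a in all 3 lines at 48 hours. Foxa3 had a peak there at rank 3835 of 5690 at 48 hours and at rank 100 of 12661 in iHep cells. The remaining regions of the best 5 were chr14:70457377-70458011 (ranks 18, 16 and 57) and chr2:38341207-38341867 (ranks 59, 6 and 49), both without any Foxa peak. Thus 3 of the 5 best-ranked common regions had no Foxa peak in any of the 6 lists, as did 199 of all 387 (51.4%).

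At the other end stood chr10:96148779-96149330, at ranks 1372, 1844 and 2303, chr1:69833107-69833810, at ranks 1442, 1694 and 2239, and chr18:85584488-85584876, at ranks 716, 2405 and 2072. The first of these weak Hnf4a regions held Foxa peaks of 5 of the 6 lists, among them iHep Foxa2 at rank 630 of 10330 and iHep Foxa1 at rank 393 of 3435. The second held Foxa peaks of 4 lists and the last of 0 lists. None of the 3 had an Hnf4a peak at 48 hours. By rank number, disagreement was widest at chr8:130548743-130549324 (ranks 61, 588 and 2460), chr5:99816206-99816766 (126, 1071 and 2470) and chr11:22952242-22952855 (79, 32 and 2333). In each of them the Foxa3 line gave the weakest rank, but the shorter Foxa1 list cannot reach such rank numbers. As a percentage of list length, chr2:181747428-181748083 was further apart than these, at 99.8%, 0.604% and 1.28%, with the Foxa1 line weakest.

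The median width of a common region was 616 bp, with quartiles of 523 and 743 bp and a range of 310 to 2945 bp. Merging can only keep or add to the width of a region's widest peak, so regions of more lines tend to be wider. The median was 449 bp for regions of the Foxa1 and Foxa2 lines alone, and 255, 326 and 196 bp for regions of the Foxa1, Foxa2 or Foxa3 line alone. The best peaks of the common regions also had wider medians than the peaks of the same list outside common regions. These were 405 against 287 bp for the Foxa1 line and 455 against 347 bp for the Foxa2 line. For the Foxa3 line the median was 43 bp above the 199 bp of the other peaks. The widest regions were chr10:7232382-7235326 (2945 bp, inside a dense block of peaks described below with the 48-hour lists), chr1:37082361-37083955 (1595 bp) and chr6:47698245-47699827 (1583 bp), and 18 regions exceeded 1 kb.

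The bases covered by all 3 lists at once came to a median of 156 bp and at most 620 bp. In 32 regions no single base was shared by all 3 lists, and the lines were joined in a chain through a peak that overlapped both others. The weakest overlap that joined a region had a median of 192 bp and was below 50 bp in 20 regions. The common regions nearest to the threshold were chr8:87267267-87267985, joined by 1 bp, chr7:86401365-86401982, joined by 5 bp, and chr6:37347973-37348446, joined by 13 bp. Just outside it were 3 regions of the Foxa1 and Foxa2 lines. At chr6:72473241-72473670 the nearest Foxa3-line peak adjoined the region with 0 bp between them, at chr6:147903453-147903879 the gap was 2 bp, and at chr12:84919957-84920583 it was 6 bp.

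Such near misses mostly involved the Foxa3 line. Of the 582 regions of the Foxa1 and Foxa2 lines, 20 had a Foxa3-line peak within 100 bp, 33 within 200 bp and 43 within 500 bp (7.39%). Of the 92 regions of the Foxa1 and Foxa3 lines and the 183 of the Foxa2 and Foxa3 lines that could be measured, 0 had a peak of the missing line within 200 bp and 2 of each had one within 500 bp.

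Peak centres in the Foxa1 and Foxa2 lines lay close together, while those of the Foxa3 line lay to the side. Between the best peaks of the Foxa1 and Foxa2 lines the median distance of the centres was 55 bp, and 176 of 387 regions (45.5%) were within 50 bp. Between the Foxa2 and Foxa3 lines it was 178.5 bp, with 43 regions (11.1%) within 50 bp and 231 (59.7%) beyond 150 bp. Between the Foxa1 and Foxa3 lines it was 158 bp, with 63 regions (16.3%) within 50 bp. Relative to the Foxa2-line centre the Foxa3-line centre was at the lower coordinate in 210 regions and at the higher one in 176, so the shift had no fixed genomic direction.

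The distances of the Foxa2 and Foxa3 lines did not gather at 0. In successive steps of 50 bp there were 43, 54, 59, 64, 71 and 50 regions, and 46 lay at 300 bp or more. The same steps for the Foxa1 and Foxa2 lines held 174, 114, 64, 20, 9 and 1 regions, with 5 beyond. The overlap rule itself limits these distances through the peak widths, and the Foxa3-line peaks were the narrowest. In regions that held only the pair of lines concerned, the median distances were 50.25 bp (Foxa1 and Foxa2 lines, 582 regions), 133.25 bp (Foxa1 and Foxa3 lines, 92 regions) and 154.5 bp (Foxa2 and Foxa3 lines, 184 regions), the same order as in the common regions. Processing and library cannot be told apart from the line here.

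**Figure D2:**
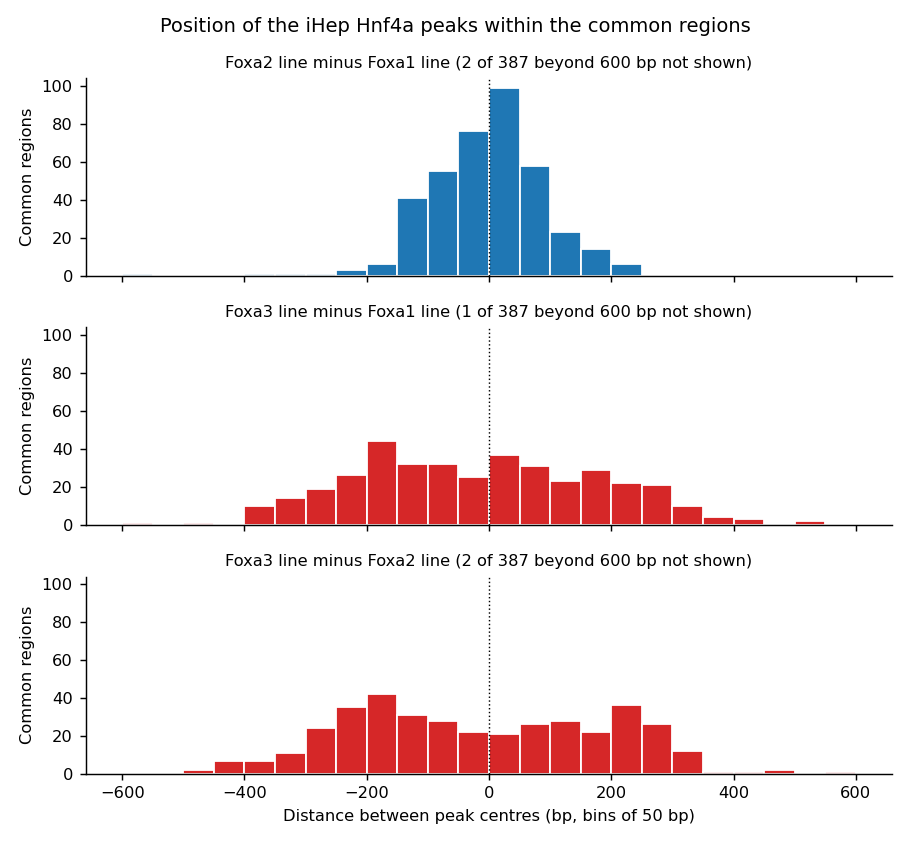
Histograms of the signed distance in bp between the centres of the best iHep Hnf4a peaks of 2 lines at the common regions, with the number of regions on the vertical axis and a few regions beyond 600 bp left out. The Foxa1 and Foxa2 lines pile up near 0 (median 55 bp), and the pairs with the Foxa3 line spread widely (medians of 158 and 178.5 bp).

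The 83 regions with several Foxa3-line peaks had a particular layout. In 79 of them there were exactly 2 such peaks, and their centres were a median of 443.5 bp apart (quartiles 363 and 522.75 bp) with a median gap of 162 bp between the peaks. The Foxa1-line centre lay between Foxa3-line peaks in 76 of the 83 regions and the Foxa2-line centre in 78. An example is chr16:34861900-34862868, where the Foxa1-line peak spanned 34862066 to 34862587 and the Foxa2-line peak 34862136 to 34862590. The Foxa3 line had peaks from 34861900 to 34862247 (score 18.0) and from 34862484 to 34862868 (score 15.5), to either side of both. What gave this layout was not tested.

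Common regions lay on all 19 autosomes. Chromosome 7 held the most, 32 (8.27% of common regions, beside 6.61% of all regions), then chromosome 4 with 30 and chromosomes 2, 6 and 8 with 29 each. Chromosomes 16 and 18 held the fewest, 11 each. As a share of a chromosome's regions, common regions ranged from 4.79% on chromosome 5 (95% Wilson interval 2.88 to 7.89%) to 11.3% on chromosome 15 (7.57 to 16.5%). The X chromosome had 0 common regions among 67, which allows a share of up to 4.48% when 3 regions are taken as the limit of a count of 0 and up to 5.42% by the Wilson interval. The 3 lists had 20, 55 and 6 peaks on it. These and all later intervals cover counting error only and treat neighbouring regions as independent, which they are not.

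**Figure D3:**
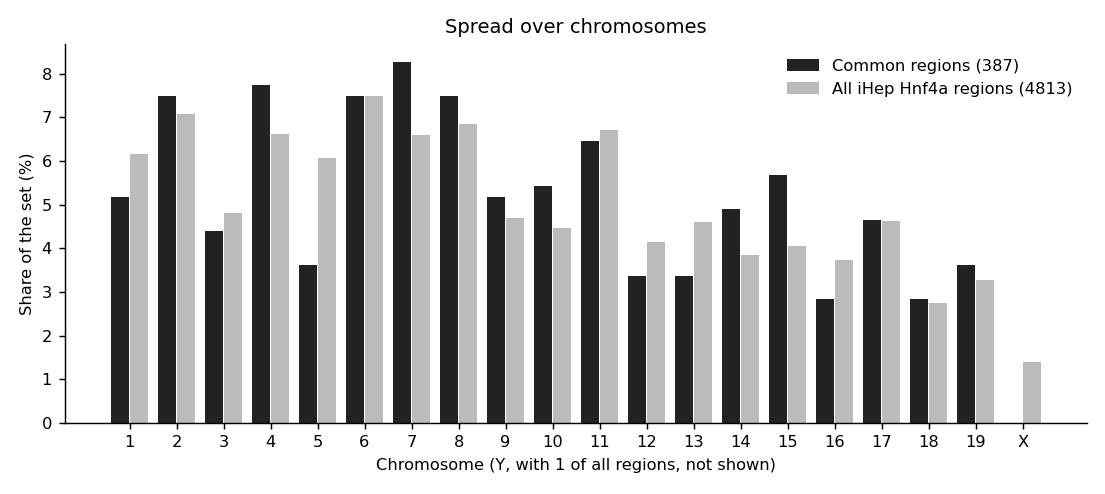
Bars give the share (%) of the 387 common regions and of all 4813 iHep Hnf4a regions that lies on each chromosome. Chromosome 7 holds 8.27% of the common regions beside 6.61% of all regions, and the X chromosome holds 0 common regions.

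Most common regions stood alone, with a median gap of 2.63 Mb to the next. Within 100 kb of another were 69 regions, in 30 runs. The run with the most members, chr6:47609107-47703818, held 6 common regions among 21 iHep Hnf4a regions in 94.7 kb. Their ranks ran from 121 to 290 of 2485 in the Foxa2 line, all in its upper part. They were spread much more widely in the other lines, from 556 to 1503 of 1580 in the Foxa1 line and from 658 to 2338 of 2506 in the Foxa3 line. Within it and just beyond, only the wider Foxa2-line peaks were listed (the narrowest had 666 bp). Any narrower peaks between them are left out of the start distances given here. Listed peaks that began at 47609107, 47613437, 47617773, 47622078 and 47626392 followed each other at start distances of 4330, 4336, 4305 and 4314 bp. Further along, peaks that began at 47689629, 47693859 and 47698251 were 4230 and 4392 bp apart. An extra Foxa2-line peak that began at 47627256 lay 864 bp after the start at 47626392 and 3481 bp before the one at 47630737. The next start after 47630737 was 4299 bp on, so the extra peak fell within a step of similar length. A start distance of 54593 bp between listed peaks, from 47635036 to 47689629, did interrupt the spacing. After 47698251 the steps were 4183, 4980, 5628, 798, 3529 and 4491 bp, which are less even and lie partly beyond the run. The spacing was noticed after the values were known and was not tested. A run of 4 common regions lay at chr15:36740702-36890937, with best ranks of 44, 177 and 25.

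Some common regions already had Hnf4a at 48 hours, most often in the Foxa1 line. A 48-hour Hnf4a peak of any line overlapped 95 of the 387 regions (24.5%, 95% Wilson interval 20.5 to 29.1%), beside 5.15% of all 4813 iHep Hnf4a regions. By line, the Foxa1 line had a peak in 78 regions (20.2%, 16.5 to 24.4%, beside 3.41% of all regions). The Foxa2 line had one in 41 (10.6%, 7.91 to 14.1%, beside 2.74%) and the Foxa3 line in 22 (5.68%, 3.78 to 8.46%, beside 1.87%). In regions of the Foxa1 and Foxa2 lines alone the share with a 48-hour peak of any line was 8.42% (6.43 to 10.96%), and in regions of 1 line 2.24% (1.81 to 2.78%). Regions of the Foxa2 and Foxa3 lines had such a peak in 10.3% (6.71 to 15.6%) and regions of the Foxa1 and Foxa3 lines in 5.43% (2.34 to 12.1%). None of these intervals reaches that of the common regions. For single 48-hour lists some do. Regions of the Foxa2 and Foxa3 lines had a Foxa2-line peak in 7.61% (4.59 to 12.4%) and a Foxa3-line peak in 4.89% (2.59 to 9.03%), with intervals that overlap those of the common regions. The differences were not tested, since each list comes from 1 library.

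Common regions are wider than the others, so the shares were also taken over windows of 1 width. Within a window of 400 bp about each region's centre the shares were 22.7% for common regions, 7.56% for regions of the Foxa1 and Foxa2 lines and 2.49% for regions of 1 line. The 48-hour Hnf4a lists also contain 3 dense blocks, stretches where every list has 5 or more successive peaks no more than 2 kb apart, and 3 common regions fell in or near the block at chr10:7229418-7236934. Without the blocks and 10 kb on each side, 92 of 384 common regions (24.0%) had a 48-hour Hnf4a peak.

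The 48-hour peaks sat mostly in the Foxa1 line. Of the 95 regions, 49 had a peak of the Foxa1 line only, 11 of the Foxa2 line only and 3 of the Foxa3 line only. Peaks of both the Foxa1 and Foxa2 lines were in 13, of the Foxa1 and Foxa3 lines in 2, of the Foxa2 and Foxa3 lines in 3 and of all 3 lines in 14. The other 292 common regions had no Hnf4a peak at 48 hours in any line. The 48-hour lists are short and of unknown depth, so a region without a peak was below the calling threshold and is not shown to be unbound.

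Counted from the 48-hour side and outside the blocks, common regions held 34.5% of the Foxa1-line Hnf4a peaks (100 of 290, 29.2 to 40.1%). They held 15.2% of the Foxa2-line peaks (50 of 328, 11.8 to 19.5%) and 9.56% of the Foxa3-line peaks (24 of 251, 6.51 to 13.8%). Their median scores were 7.94, 7.83 and 8.37, beside 7.80, 9.05 and 16.6 for the remaining peaks of each list, so the Foxa3-line peaks at common regions had the lower median score of their list. The centre of the 48-hour Foxa1-line peak was a median of 92 bp from the iHep centre of the same line, 83 bp from that of the Foxa2 line and 184.25 bp from that of the Foxa3 line (76 regions). The 48-hour Foxa3-line peak was likewise nearer to the iHep centres of the Foxa1 line (73.5 bp) and the Foxa2 line (69 bp) than to that of its own line (168.5 bp, 19 regions).

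Regions with an early Hnf4a peak of any line had better median ranks in iHep cells. The median iHep rank of the 95 regions with a 48-hour peak and of the 292 without was 16.8% against 29.6% for the Foxa1 line, 10.3% against 26.1% for the Foxa2 line and 24.8% against 32.0% for the Foxa3 line. The quartiles overlapped in every line, for example 3.38 to 25.5% against 11.6 to 50.8% in the Foxa2 line. Split by the 48-hour list instead, the 22 regions with a Foxa3-line peak ranked lower in the iHep Foxa1 line, with a median of 30.9% against 26.8% without it. In the 14 regions with a 48-hour peak of all 3 lines the median ranks were 21.2%, 8.91% and 8.66%. These ranks come from values the choice of regions used, and the difference was not tested.

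Outside the dense blocks 12 common regions had Hnf4a peaks of all 3 lines at 48 hours and thus in all 6 Hnf4a lists. Their iHep ranks were spread widely, with extremes of 2 and 1577, 7 and 1116, and 6 and 2072 in the 3 lists. After chr6:85087100-85087841 the best were chr16:34861900-34862868 (ranks 3, 53 and 115) and chr6:120404538-120405159 (rank 4, a rank at 8.93% of the list, and rank 64), both without a Foxa peak. At chr16:52333610-52334169 (ranks 22, 7 and 2072) Foxa1 and Foxa2 had strong peaks at both stages, with rank 82 of 6781 for Foxa1 and rank 66 of 6827 for Foxa2 at 48 hours and ranks 213 and 204 in iHep cells. Foxa3 had no peak there at either stage.

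A pair of these 12 regions lay beyond every other peak of all lists on their chromosome, chr2:181747428-181748083 and chr18:90771441-90772167. The former had ranks 1577, 15 and 32 and the latter 575, 8 and 9, so both were weakest in the Foxa1 line. Both also had an iHep Foxa3 peak, at ranks 5634 and 1379 of 12661. The other 6 were chr1:134953942-134954746, chr13:24287020-24287763, chr19:56622315-56623279, chr6:99761200-99762005, chr8:97395204-97396072 and chr14:77081381-77082199.

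**Figure D4:**
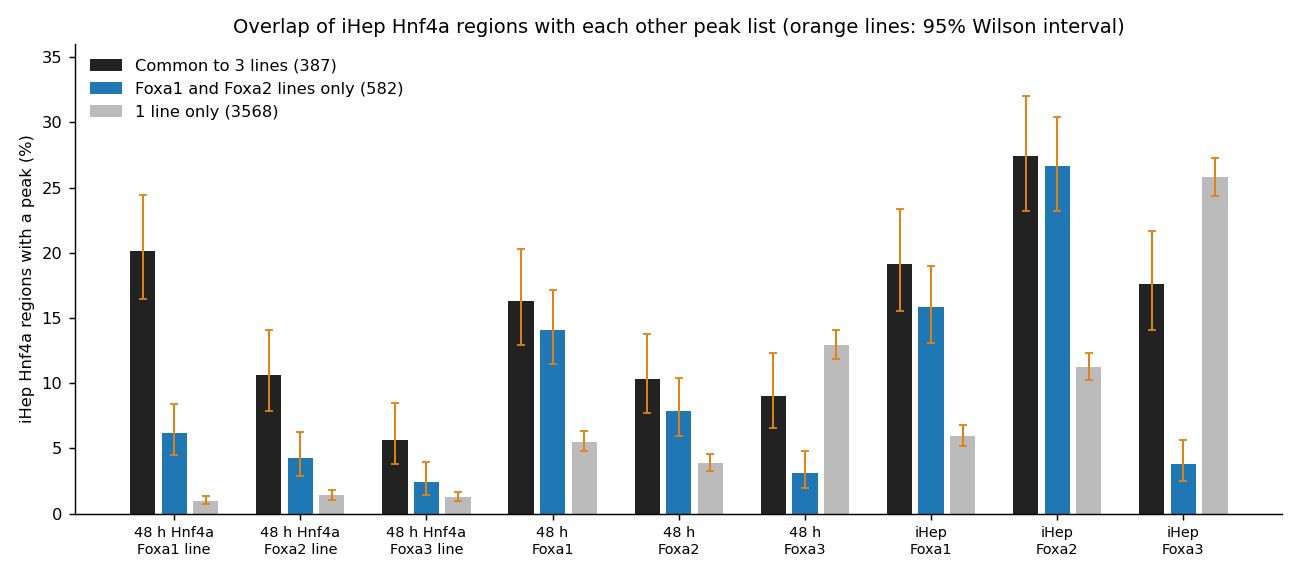
Share (%) of the common regions that overlap a peak of each 48-hour Hnf4a list and each Foxa list, with 95% Wilson intervals as lines, beside regions of the Foxa1 and Foxa2 lines only and regions of 1 line only. Common regions are highest for 48-hour Hnf4a, near regions of the Foxa1 and Foxa2 lines for iHep Foxa2 (27.4% and 26.6%) and below regions of 1 line for iHep Foxa3 (17.6% and 25.8%).

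Foxa proteins were found at 188 of the 387 common regions in at least 1 of the 6 lists (48.6%, 43.6 to 53.5%), beside 39.9% of all iHep Hnf4a regions. Foxa2 in iHep cells was the most frequent, at 106 regions (27.4%, 23.2 to 32.0%, beside 14.8% of all regions). Foxa1 in iHep cells had peaks at 74 (19.1%, 15.5 to 23.3%, beside 8.25%) and Foxa3 in iHep cells at 68 (17.6%, 14.1 to 21.7%, beside 22.4%). At 48 hours Foxa1 was at 63 regions (16.3%, 12.9 to 20.3%, beside 7.52%). Foxa2 was at 40 (10.3%, 7.68 to 13.8%, beside 5.15%) and Foxa3 at 35 (9.04%, 6.57 to 12.3%, beside 11.6%) at that stage. The share with any Foxa peak was not highest in common regions. It was 53.1% (50.7 to 55.4%) in regions of the Foxa3 line alone. Of the 184 regions of the Foxa2 and Foxa3 lines, 92 had such a peak (42.8 to 57.2%). The other classes had lower shares, from 24.1% (Foxa2 line alone) to 41.3% (Foxa1 and Foxa3 lines). Within windows of 400 bp the share was 46.8% for common regions and 41.6% for regions of 1 line. These differences were not tested.

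The order of the paralogs depended on the unequal lengths of their lists. With each iHep Foxa list reduced by score to the 3435 peaks of the Foxa1 list, the shares were 19.1% for Foxa1, 14.2% for Foxa2 and 6.46% for Foxa3. At 48 hours, with each list reduced to 5690 peaks, they were 13.95% for Foxa1, 8.53% for Foxa2 and 9.04% for Foxa3, so that Foxa2 came below Foxa3. How close a peak must lie mattered too. With the centre of the Foxa peak within 200 bp of the region's centre, iHep Foxa3 was at 9.30% and 48-hour Foxa3 at 3.88% of common regions.

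For Foxa1 and Foxa2 the common regions stood near the regions of the Foxa1 and Foxa2 lines alone. These 582 regions had iHep Foxa2 at 26.6% (23.2 to 30.4%) and iHep Foxa1 at 15.8% (13.1 to 18.99%), with intervals that overlap those of the common regions. For Foxa3 they stood apart, with 3.78% (2.51 to 5.65%) in iHep cells and 3.09% (1.97 to 4.84%) at 48 hours against 17.6% and 9.04% in common regions. The other regions of 2 lines, which hold a Foxa3-line Hnf4a peak as the common regions do, had higher shares with intervals that overlap theirs. Regions of the Foxa1 and Foxa3 lines had iHep Foxa3 at 21.7% (14.5 to 31.2%) and 48-hour Foxa3 at 13.0% (7.62 to 21.4%), and regions of the Foxa2 and Foxa3 lines at 26.6% (20.8 to 33.4%) and 15.8% (11.2 to 21.7%). The share of iHep Foxa3 was 46.8% (44.5 to 49.2%) in the 1728 regions of the Foxa3 line alone, where Foxa3 and Hnf4a come from the same cells, and 5.26% (4.19 to 6.597%) and 8.04% (5.98 to 10.7%) in regions of the Foxa2 or the Foxa1 line alone. None of these differences was tested.

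Foxa3 was seldom found in the same common region as Foxa1 or Foxa2. Peaks of Foxa1 or Foxa2 without Foxa3 were in 116 regions, Foxa3 without Foxa1 or Foxa2 in 62, both kinds in 10 and none in 199, or 29.97%, 16.0%, 2.58% and 51.4%. Over all 4813 iHep Hnf4a regions these shares were 16.2%, 22.5%, 1.27% and 60.1%, and over the 582 regions of the Foxa1 and Foxa2 lines 29.2%, 3.44%, 1.37% and 66.0%. Regions with both kinds were thus few in each set. In iHep cells 69 of the 74 regions with Foxa1 also had Foxa2, while 37 had Foxa2 without Foxa1. Only 7 regions had iHep Foxa3 together with iHep Foxa1 or Foxa2. Each Foxa protein was mapped in its own line, so these counts compare lines as well as proteins. All 3 paralogs met in iHep cells in 5 regions, and 1 region had all 3 at 48 hours. The counts for a single stage were not taken over all 4813 regions, so they too are a description of the common regions alone.

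Counted over the 6 lists, 69 common regions had a Foxa peak of 1 list, 65 of 2, 31 of 3, 21 of 4, 2 of 5 and 0 of 6. Neither these counts nor the combinations below were taken over all iHep Hnf4a regions, so they are not shown to be particular to the common regions. The frequent combinations were iHep Foxa3 alone (30 regions), Foxa3 at both stages (29), iHep Foxa1 with iHep Foxa2 (24), iHep Foxa2 alone (23), those with 48-hour Foxa1 added to iHep Foxa1 and Foxa2 (22), and Foxa1 and Foxa2 at both stages (17). Peaks of 5 lists were found at chr15:3197769-3198527 and at chr10:96148779-96149330, and the list without a peak was 48-hour Foxa3 in both. The former ranked high for Hnf4a (at 10.4%, 3.54% and 4.91% of the lists), and its iHep Foxa2 peak had rank 1065 of 10330.

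**Figure D5:**
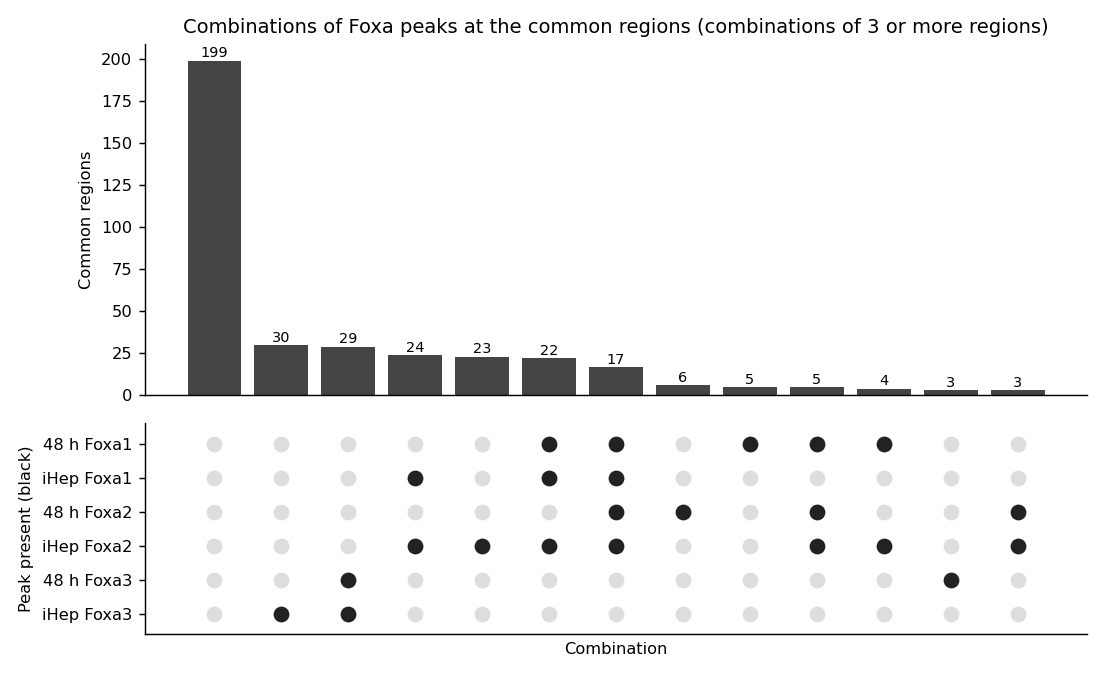
Number of common regions with each combination of the 6 Foxa lists that at least 3 regions have, with the lists of a combination marked beneath its bar. Regions without a Foxa peak are the most numerous (199), and the largest combinations hold either Foxa3 or Foxa1 and Foxa2, seldom both (10 regions).

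Across the stages, Foxa1 was present at both in 45 common regions, only at 48 hours in 18 and only in iHep cells in 29. Foxa2 was present at both in 29, only at 48 hours in 11 and only in iHep cells in 77. For Foxa3 these counts were 31, 4 and 37. Of the 63 regions with Foxa1 at 48 hours, 56 had Foxa1 or Foxa2 in iHep cells. In 16 common regions there was a Foxa peak at 48 hours and none in iHep cells. The lists of the stages differ in length, with 6781 peaks at 48 hours and 3435 in iHep cells for Foxa1. For Foxa2 there were 6827 and 10330, and for Foxa3 5690 and 12661. These counts thus depend on list length as well. They were not set beside those of all iHep Hnf4a regions, so they are not shown to be particular to the common regions.

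Early Foxa peaks at common regions were mostly found again in iHep cells. For Foxa1, 47 of 64 such peaks (73.4%, 61.5 to 82.7%) overlapped an iHep Foxa1 peak, for Foxa2 29 of 40 (72.5%, 57.2 to 83.9%) and for Foxa3 31 of 35 (88.6%, 74.0 to 95.5%). Over the whole 48-hour lists the shares were 30.8%, 31.5% and 74.2%. The early Foxa peaks at the other iHep Hnf4a regions had similar shares, with 67.6% (202 of 299, 62.1 to 72.6%), 70.0% (145 of 207, 63.5 to 75.9%) and 88.5% (423 of 478, 85.3 to 91.1%). The high share was therefore also seen at iHep Hnf4a regions outside the common set. Of the highest 25% of each 48-hour list, 57.5%, 46.9% and 88.5% were found again. In the reverse direction, 60.5% of the iHep Foxa1 peaks at common regions had a 48-hour Foxa1 peak (46 of 76), 27.4% of the Foxa2 peaks (29 of 106) and 41.2% of the Foxa3 peaks (33 of 80), beside 60.8%, 20.8% and 43.8% of the whole iHep lists.

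By score, the Foxa peaks at common regions were mostly ordinary peaks of their lists. Their median position was 38.5% of the list for Foxa1, 49.8% for Foxa2 and 52.9% for Foxa3 at 48 hours, and 47.2%, 31.8% and 42.0% in iHep cells, where the middle of a list is at 50%. The iHep Foxa2 peaks were the highest placed, with 45 of 106 (42.5%) in the highest 25% of their list and a median score of 28.4 beside 20.3 for the whole list.

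Foxa and Hnf4a centres lay close in the Foxa1 and Foxa2 lines. In iHep cells the median distance from the Foxa peak to the Hnf4a peak of the same line was 84.5 bp for Foxa1 (45 of 74 regions within 100 bp), 54.75 bp for Foxa2 (74 of 106) and 166.5 bp for Foxa3 (26 of 68). At 48 hours the Foxa centres were 94, 74.5 and 218 bp from the iHep Hnf4a centre of their line. Several Foxa peaks of 1 list in a region were seen mainly for iHep Foxa3, in 12 of 68 regions, against 2 of 74 for iHep Foxa1 and 0 of 106 for iHep Foxa2. The iHep Foxa3 centre lay on the same side of the Foxa2-line Hnf4a centre as the Foxa3-line Hnf4a centre in 42 regions and on the opposite side in 26. A Foxa3 peak was counted only if it overlapped the merged region, which extends over the Foxa3-line Hnf4a peak. This rule itself can favour the same side, and the split was not tested.

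Median Hnf4a ranks of common regions with and without Foxa differed by less than the spread among the regions. Regions with iHep Foxa2 had a median Hnf4a rank of 14.9% in the Foxa2 line against 23.7% without it, and of 37.4% against 28.9% in the Foxa3 line. Regions with iHep Foxa3 had a median of 22.9% in the Foxa3 line against 32.0% without it, and of 33.8% against 25.9% in the Foxa1 line. In each case the quartiles overlapped, for example 4.24 to 41.5% against 9.05 to 48.3% for iHep Foxa2 in the Foxa2 line. The 199 regions without any Foxa peak had median ranks of 25.6%, 24.5% and 29.6% in the Foxa1, Foxa2 and Foxa3 lines.

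Early Hnf4a and Foxa peaks met in part of the common regions. A 48-hour Foxa peak lay in 39 of the 95 regions with 48-hour Hnf4a (41.1%, 31.7 to 51.1%) and in 69 of the 292 without (23.6%, 19.1 to 28.8%). Without the dense blocks the former share was 39.1% (36 of 92, 29.8 to 49.3%). For iHep Foxa peaks the shares were 50.5% (40.6 to 60.4%) and 42.5% (36.9 to 48.2%), with overlapping intervals. The single iHep paralogs differed in direction, but the intervals overlapped for Foxa1 and Foxa2 and were apart only for Foxa3. Regions with early Hnf4a had iHep Foxa1 in 12.6% (7.38 to 20.8%) against 21.2% (16.9 to 26.3%) without it, and iHep Foxa2 in 21.1% (14.1 to 30.3%) against 29.5% (24.5 to 34.9%). They had iHep Foxa3 in 27.4% (19.4 to 37.1%) against 14.4% (10.8 to 18.9%). Grouped by paralog over both stages, the regions with Foxa3 but no Foxa1 or Foxa2 peak had 48-hour Hnf4a in 24 of 62 cases (38.7%, 27.6 to 51.2%). Regions with Foxa1 or Foxa2 alone had it in 28 of 116 (24.1%, 17.3 to 32.7%), and regions without Foxa in 40 of 199 (20.1%, 15.1 to 26.2%). These groups of regions were compared without a test. Regions with early Hnf4a were also wider. Their median widths were 685, 767.5 and 805.5 bp for peaks of 1, 2 and 3 early Hnf4a lists, against 591.5 bp for 0. A wider region can meet peaks of either kind more easily, and these shares were not taken over windows of 1 width.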

How the data were processed

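The series has 21 samples, 13 with a peak list and 8 inputs (input files not analysed here). The deposited lists give each peak's chromosome, start, end, name and a score. For the authors' computation of the score, and for any use of inputs in calling, the sources used here give nothing. The submitters' processing notes name the build mm9, bedtools 2.16.2, BWA 0.6.2 and MACS2 2.1.0, without roles. Positions are mm9, with the first base counted as 1. Groups follow stage, line and antibody in the titles.

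Peaks and regions count as overlapping from 1 shared bp on, and shares carry 95% Wilson intervals. Merging and overlap were tested on simulated data with known answers. Each simulated common region held 1 peak of each list, always overlapping, so chained regions and several peaks of 1 list were not covered. The regions, and the lists set beside them, were chosen with earlier results of these data known.

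Named regions are the 5 with the best and the 3 with the worst summed rank over the iHep Hnf4a lists, the 3 whose ranks differ most, those with 48-hour Hnf4a in all 3 lines outside dense blocks, those with 5 or 6 Foxa lists, the 3 widest, the 3 with the smallest overlap and the 3 nearest misses. Runs of neighbouring regions were named after their values were seen. Alternatives changed the overlap, the score threshold, list lengths, chromosomes, dense blocks, merging, Foxa distance and the definition of width. Genes, sequences and motifs were not analysed here, since no mm9 genome or annotation was used. The software was SciPy 1.17.1, pandas 2.3.3 and NumPy 2.4.6 under Python 3.11.15, with matplotlib 3.10.9 for plots.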

Additional observations from a re-analysis of the deposited data

How the results depend on the processing

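Of 125 values recomputed under the alternatives, 110 stayed within the counting interval of the main share or correlation, or within 1.5 times the main count of regions, and 15 moved beyond. Among the 110 are 12 values for autosomes only, which could not change because 0 common regions lie on the X or Y chromosome. A further 12 leave out the dense blocks, which removed only 3 regions and so could change them little. The count of 387 regions also counts as within at 266 with the iHep Hnf4a lists at equal length and at 294 with peak centres within 200 bp. It was 333 with an overlap of 50% of the shorter peak and 430 with peaks within 500 bp merged. The rho of the Foxa1 and Foxa3 lines also counts as within, although it fell from 0.14 to 0.051 over regions with 1 peak of each line. Only the common regions were recomputed, not the classes beside them. With the upper 50% of each iHep Hnf4a list there were 169 common regions, of which 26.04% had a 48-hour Hnf4a peak of the Foxa1 line, 15.4% of the Foxa2 line and 32.0% of any line. With Foxa centres within 200 bp of the region's centre the shares were 12.9% for Foxa1, 7.49% for Foxa2 and 3.88% for Foxa3 at 48 hours, 14.7%, 23.0% and 9.30% in iHep cells, and 37.5% for any Foxa list. With the Foxa lists of a stage at equal length, iHep Foxa2 was at 14.2%, iHep Foxa3 at 6.46% and any Foxa at 35.9%. The bases common to all 3 lists had a median of 156 bp. The width of the 400 bp window was chosen after the data were seen. No paired analysis was possible because each group holds 1 library, so replicate numbers pair no samples and no result comes from a test. The stages were compared within a line only through overlaps and distances of peaks, without a test. Depth is unknown, so a missing peak cannot be read as missing binding, and score ranks of lists of different length are not a measure of change.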
